A study of Mus musculus with 2 samples.

Results

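The genes described here are 36 genes of glycolysis and of the response to low oxygen, measured by single-cell RNA sequencing in pancreatic tumours of KPPC mice. The rule that selects them uses gene symbols only, and all 36 were found among the 32245 gene symbols of the count matrices. The KPPC mouse is an engineered model of pancreatic ductal cancer. The labels give the strain name without its alleles or Cre driver. One group was KPPC mice given vehicle and the other KPPC mice given takinib at 50 mg/kg. Per the labels, the mice of both groups were 6 weeks old and dosing lasted 14 days. The drug takinib blocks TAK1, a kinase of inflammatory signalling. Each group has 1 library, and the number of mice in it is not given in the labels. No test between treatments was therefore possible, and no difference below has a replicate check.

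Glycolysis splits glucose into pyruvate in the cytosol. Glucose enters through transporters such as Slc2a1, is trapped by hexokinases, is committed at the phosphofructokinase step, and leaves many cells as lactate made by Ldha and exported by Slc16a3. When oxygen is short, the prolyl hydroxylases Egln1 and Egln3 no longer mark the transcription factor subunit HIF-1 alpha (Hif1a) for decay. HIF then binds a short core motif near its target genes, which include most enzymes of glycolysis and the mitophagy receptor Bnip3. Hif1a itself is controlled mainly at the protein level, so its transcript is not a direct readout of HIF activity. Pancreatic tumours are known as dense, poorly perfused tissue, and neutrophils and macrophages in such tissue are known for active glycolysis.

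The vehicle matrix held 80850334 UMIs (unique molecular identifiers, each standing for a captured transcript) and the takinib matrix 139292875. Equal filters on barcodes left 9558 cells of vehicle and 25183 of takinib, with medians of 3556 and 2887 UMIs and of 8.70% and 1.79% mitochondrial UMIs. The libraries shared 400 cell barcodes, against 376 if their barcodes were independent. Vehicle cells came from both sexes: 1075 held Xist and no Y-linked transcript and 3087 the reverse, while no takinib cell held a Y-linked transcript. The neutrophil transcripts S100a8 and S100a9 summed to 804 CPM (counts per 1000000 UMIs) over all kept vehicle cells and 43718 CPM over all takinib cells, and their rise in cells of other classes is given beside each class below. Library, sex, depth, free RNA and drug cannot be told apart in this design.

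Promoter windows are shown for 6 of the genes that the comparison turns on, covering glucose entry (Slc2a1), control of phosphofructokinase (Pfkfb3), lactate production (Ldha), mitophagy (Bnip3), oxygen sensing (Egln3) and disulfide formation in the secretory pathway (Ero1l, listed by RefSeq as Ero1a). Each is the 250 bases before a RefSeq transcription start in mouse build GRCm38.p6, written 5′ to 3′ on the gene's strand. Capitals mark every match to the hypoxia response element core, ACGTG or GCGTG, on either strand, so CACGT and CACGC are capitals too, and the palindrome CACGTG counts as 2 matches.
Slc2a1 (chr4:119108495-119108744, plus strand): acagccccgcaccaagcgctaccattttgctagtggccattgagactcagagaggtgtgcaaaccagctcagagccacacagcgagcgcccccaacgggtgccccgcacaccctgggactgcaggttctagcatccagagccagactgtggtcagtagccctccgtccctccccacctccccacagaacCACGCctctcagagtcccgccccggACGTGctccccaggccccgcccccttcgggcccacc
Pfkfb3 (chr2:11502091-11502340, minus strand): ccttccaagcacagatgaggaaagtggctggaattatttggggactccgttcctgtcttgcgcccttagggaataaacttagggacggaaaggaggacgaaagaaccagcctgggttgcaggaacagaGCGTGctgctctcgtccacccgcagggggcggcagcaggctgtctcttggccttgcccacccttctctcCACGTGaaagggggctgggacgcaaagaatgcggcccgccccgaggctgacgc
Ldha (chr7:46845554-46845803, plus strand): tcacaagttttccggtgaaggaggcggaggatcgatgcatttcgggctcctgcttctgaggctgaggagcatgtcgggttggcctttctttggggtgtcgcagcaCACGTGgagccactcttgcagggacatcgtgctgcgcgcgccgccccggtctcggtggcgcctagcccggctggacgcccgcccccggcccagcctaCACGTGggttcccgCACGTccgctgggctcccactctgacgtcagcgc
Bnip3 (chr7:138909507-138909756, minus strand): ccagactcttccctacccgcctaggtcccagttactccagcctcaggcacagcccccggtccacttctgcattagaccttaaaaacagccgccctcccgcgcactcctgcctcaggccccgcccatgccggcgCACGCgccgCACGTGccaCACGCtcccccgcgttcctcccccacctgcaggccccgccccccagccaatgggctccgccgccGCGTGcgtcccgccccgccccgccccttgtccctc
Egln3 (chr12:54203875-54204124, minus strand): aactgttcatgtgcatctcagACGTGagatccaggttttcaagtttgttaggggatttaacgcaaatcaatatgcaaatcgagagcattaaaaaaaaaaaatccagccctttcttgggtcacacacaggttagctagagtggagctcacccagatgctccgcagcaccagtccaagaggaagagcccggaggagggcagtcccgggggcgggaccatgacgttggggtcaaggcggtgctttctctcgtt
Ero1l (chr14:45318573-45318822, minus strand): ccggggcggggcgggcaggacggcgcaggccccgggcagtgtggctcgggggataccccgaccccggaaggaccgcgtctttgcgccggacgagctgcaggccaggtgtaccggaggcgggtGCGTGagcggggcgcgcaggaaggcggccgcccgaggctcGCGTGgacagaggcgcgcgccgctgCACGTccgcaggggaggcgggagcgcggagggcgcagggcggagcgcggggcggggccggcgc

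The windows of Ldha and Bnip3 each held 5 matches, those of Pfkfb3 and Ero1l 3 each, that of Slc2a1 2 and that of Egln3 1, the latter near the far end of its window. Ldha and Pfkfb3 each have a second RefSeq window, which is not shown and held 1 match. RefSeq promoter entries were matched for 33 of the 36 genes, with Slc2a3, Bnip3l and Ndrg1 unmatched. Over these 33 genes, 38 of 47 windows (80.9%) held a match and 21 (44.7%) held at least 2. The corresponding shares over all 32851 RefSeq windows of the same length were 38.6% and 16.7%. Many of the 36 genes are known as HIF targets, so these shares describe the list and no more. A match is a run of letters and not a site shown to be bound in these cells.

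Cells were grouped by clustering that left out the 36 genes and 63 related pathway genes, and clusters were named by marker genes. Both libraries held 100 or more cells of 7 classes, namely epithelial-like, fibroblast-like, endothelial-like, monocyte-macrophage-like, neutrophil-like, T-like and B-like cells. Clusters left unnamed are in no class and held 529 vehicle cells (5.53% of the library) and 5807 takinib cells (23.1%). Counts were summed per class and library and given as CPM of that class, and the ratio of takinib to vehicle is log2 of (CPM + 10), with a 95% interval in square brackets that covers counting error only. A gene is called higher or lower here when its counts in the class reached 50 in vehicle or in takinib and the ratio was 1 or more on that log2 scale in either direction, that is 2-fold or more after the pseudocount. Of the 252 pairs of gene and class, 221 passed the count filter, 56 were called higher in takinib and 0 were called lower. B-like cells gave 22 of the 56. Over all genes tested, the share called higher ran from 1.97% (monocyte-macrophage-like) to 10.4% (B-like). The share called lower ran from 1.27% (T-like) to 15.9% (neutrophil-like). The classes come from the same 2 libraries and are not repeats of the comparison.

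Calls were spread unevenly over roles. Bnip3, which marks mitochondria for removal, was called higher in each of the 7 classes. Pfkfb3, which makes the activator of phosphofructokinase, and Ero1l were called in each of the 6 classes where they passed the filter. Slc16a3 and the oxygen sensor Egln3 were called in 4 classes each, and Ankrd37 and Ndrg1 in 3 each. The transporters Slc2a1 and Slc2a3, the phosphofructokinase subunit Pfkp and Bnip3l were called in 2 each, and Hk3, Pfkl, Adm, Higd1a and the transcription factor Mxi1 in 1 each. Most enzymes that carry the glycolytic flux were above 0 in all 7 classes and past the 2-fold limit in few. These were Aldoa, Tpi1, Gapdh, Eno1, Pkm and Pgam1, each called in 1 class, and Pgk1 and Ldha, each called in 2. In all, 12 genes were called in no class: Hk1, Hk2, Gpi1, Pfkfb4, Aldoc, Pdk1, Egln1, P4ha1, P4ha2, Car9, Hif1a and Kdm3a.

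**Figure D1:**
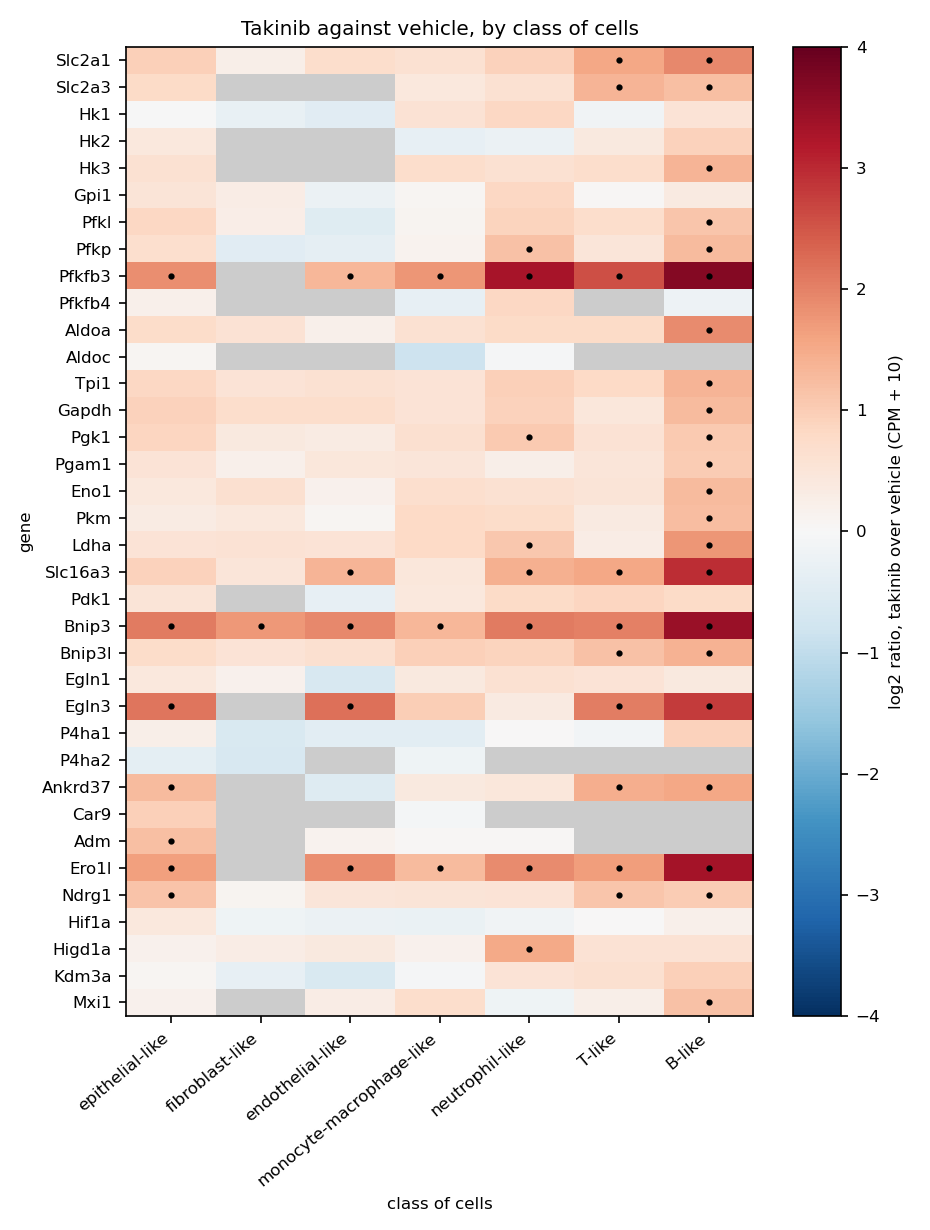
Log2 ratio of takinib to vehicle for the 36 genes (rows) in the 7 compared classes (columns), on log2(CPM + 10), 1 library per group. Black dots mark genes called higher and grey cells are under the count filter; the row of Bnip3 carries a dot in every class, and no gene was called lower.

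Epithelial-like cells, the class in which carcinoma cells would fall, comprised 1680 vehicle and 1864 takinib cells and lay in 4 clusters, in which 7 to 11 of 12 epithelial markers were detected. All 36 genes passed the count filter there. Of them 7 were called higher in takinib, against 2.24% of the 12495 genes tested, and 0 lower, against 1.88%. The median log2 ratio of the 36 was 0.64, with 34 above 0, against a median of -0.08 over all genes tested. Takinib cells of the class were deeper, with a median of 9192.5 UMIs against 5093.5 in vehicle.

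The 2 highest ratios in epithelial-like cells were those of Egln3 and Bnip3, both outside the glycolytic chain. Bnip3 stood at 26.6 CPM in vehicle and 144 CPM in takinib, a log2 ratio of 2.08 [1.95, 2.21]. Egln3 stood at 10.5 and 79.6 CPM, a log2 ratio of 2.13 [1.97, 2.27]. For both genes the takinib library was the high one and the counting intervals of the ratios lie wholly above the limit. Ero1l, the oxidase that recharges disulfide formation in the endoplasmic reticulum, was at 33.5 and 127 CPM (log2 1.66 [1.53, 1.78]). Ndrg1, a stress-responsive gene often used as a hypoxia marker, was at 36.6 and 92.8 CPM (log2 1.14 [1.02, 1.27]). Ankrd37 (8.23 and 33.7 CPM, log2 1.26 [1.10, 1.42]) and Adm, which encodes the vasodilator peptide adrenomedullin (2.21 and 17.8 CPM, log2 1.19 [1.04, 1.32]), were also called. Car9, the cell-surface carbonic anhydrase that exports acid, stood at 41.1 and 88.0 CPM, and its log2 ratio of 0.94 [0.82, 1.06] was just under the limit.

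Of the glycolytic genes in epithelial-like cells, Pfkfb3 alone was called, at 10.3 CPM with vehicle and 63.0 CPM with takinib (log2 1.85 [1.69, 2.00]). The steps around it were above 0 and under the limit. Slc2a1, the main glucose transporter, was at 52.0 and 111 CPM (log2 0.96 [0.85, 1.07]). Gapdh, in mid-pathway, was at 1549.7 and 2933 CPM (log2 0.92 [0.89, 0.94]). Pgk1, the first step that returns ATP, was at 173 and 319 CPM (log2 0.85 [0.78, 0.92]). The 5 enzymes from Gapdh to Pkm had log2 ratios from 0.32 (Pkm) to 0.92 (Gapdh), so all 5 lay above 0 and under the limit. At the lactate end, Ldha was at 358 and 529 CPM (log2 0.55) and the lactate exporter Slc16a3 at 25.8 and 58.2 CPM (log2 0.93). Hk2, the inducible hexokinase, gave 38.5 and 55.0 CPM (log2 0.42), while the constitutive Hk1 gave 68.2 and 66.9 CPM (log2 -0.03). Hif1a was at 116 and 158 CPM (log2 0.42). P4ha2, a collagen prolyl hydroxylase and the only gene besides Hk1 below 0, was at 38.1 and 26.4 CPM (log2 -0.40).

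**Figure D2:**
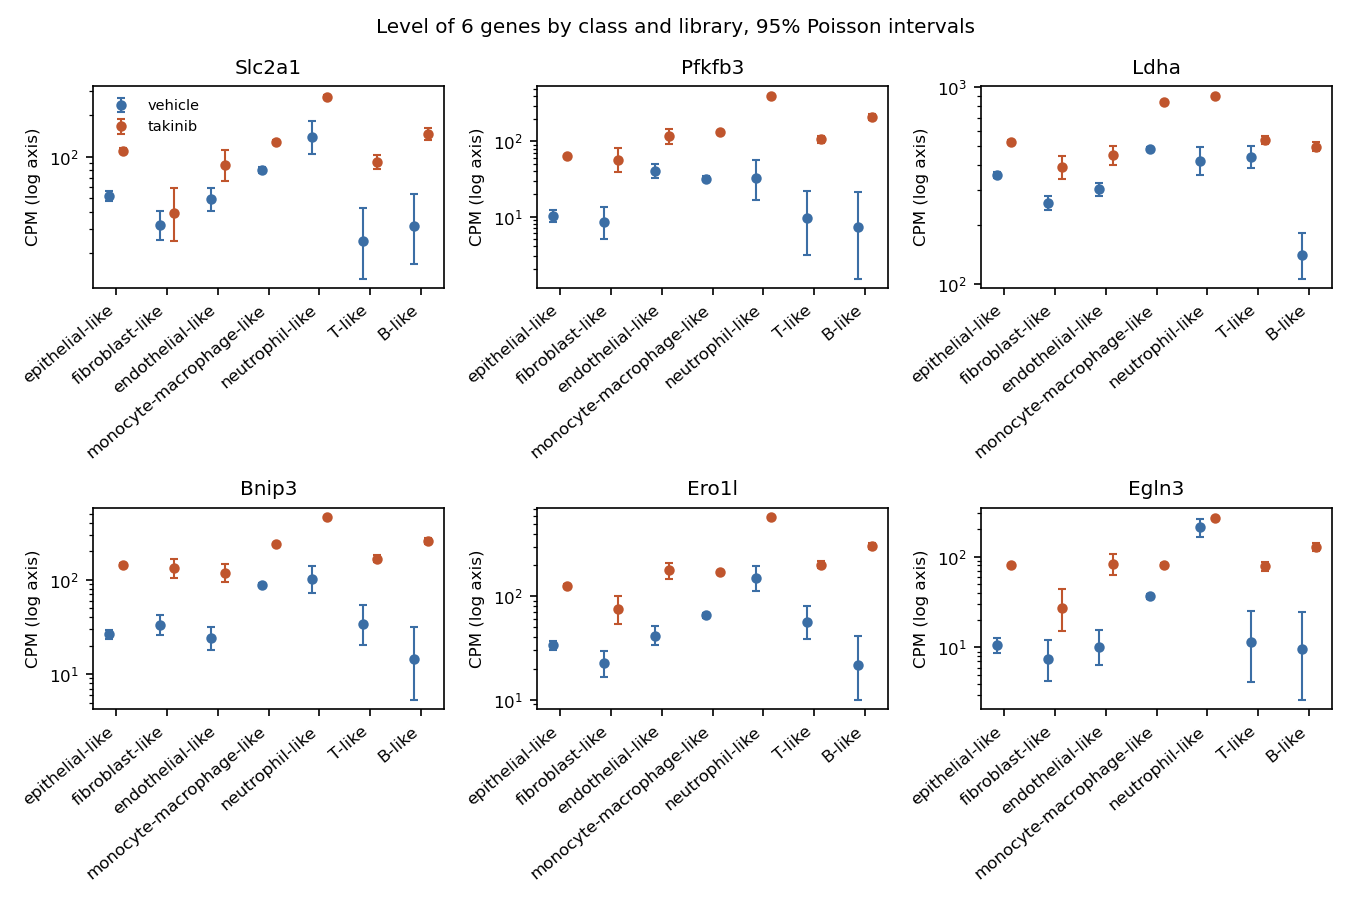
Levels of selected genes in CPM (log axis) in the compared classes, vehicle in blue and takinib in orange, with 95% exact Poisson intervals that cover counting error only. In epithelial-like cells Bnip3 lies at 26.6 CPM in vehicle and 144 CPM in takinib.

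Neutrophil transcripts moved with the takinib library in this class. All 11 markers of the neutrophil list had counts in both libraries of epithelial-like cells, and their sum was 138 CPM in the vehicle library and 10114 CPM in the takinib library. Removing the takinib neutrophil-like profile, scaled to the S100a8 and S100a9 counts of the class, took out 5.98% of the takinib UMIs. After that step the log2 ratio was 1.88 for Bnip3, 1.92 for Egln3, 1.34 for Pfkfb3, 1.32 for Ero1l, 1.24 for Adm and 1.17 for Ndrg1, and 0.40 for Slc16a3. Ankrd37 and Car9 were past the limit after it, at 1.11 and 1.02, and 8 genes in all were then called higher, against 1.56% of all genes.

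Within the 2 largest epithelial-like clusters the same comparison can be made on cells of more similar state. One cluster, led by Gkn3 and Dmbt1, held 482 vehicle and 746 takinib cells. Of the 34 genes past the filter there, 9 were called higher, against 2.6% of all genes tested, and 0 lower, against 0.819%. The other, led by Hmga2 and Cdkn2a, held 1074 and 812 cells, and 12 of 36 genes were called higher, against 2.95% of all genes, and 0 lower, against 2.27%. In the Gkn3 cluster Bnip3 stood at 16.1 and 104 CPM (log2 2.13 [1.86, 2.38]), and in the Hmga2 cluster at 33.0 and 175 CPM (log2 2.11 [1.95, 2.27]). The intervals of these ratios overlap. Egln3 was at 14.6 and 61.3 CPM in the Gkn3 cluster (log2 1.54 [1.26, 1.80]) and at 7.85 and 92.8 CPM in the Hmga2 cluster (log2 2.53 [2.33, 2.71]), where the intervals do not overlap.

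Several genes were called in one of these clusters and not in the other. Car9 was at 92.4 and 110.2 CPM in the Gkn3 cluster (log2 0.23 [0.06, 0.40]) and at 18.4 and 69.1 CPM in the Hmga2 cluster (log2 1.48 [1.29, 1.67]). Its vehicle level was thus higher in the Gkn3 cluster, and its 2 takinib levels lay closer together. Slc16a3 was at 4.47 and 38.8 CPM in the Gkn3 cluster (log2 1.75 [1.47, 2.00]) and at 37.7 and 70.0 CPM in the Hmga2 cluster (log2 0.75 [0.58, 0.91]). Slc2a1 gave log2 0.84 [0.61, 1.07] in the Gkn3 cluster and 1.16 [1.02, 1.29] in the Hmga2 cluster, and Gapdh gave 1.18 [1.13, 1.24] and 0.98 [0.96, 1.01], which for both genes lie on either side of the limit with overlapping or close values. Pgk1 (1.00), Pfkl (1.02) and Pfkp (1.03), the latter pair being phosphofructokinase subunits, were called in the Hmga2 cluster at values near the limit. Differences between clusters have no replicate and were not tested.

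**Figure D3:**
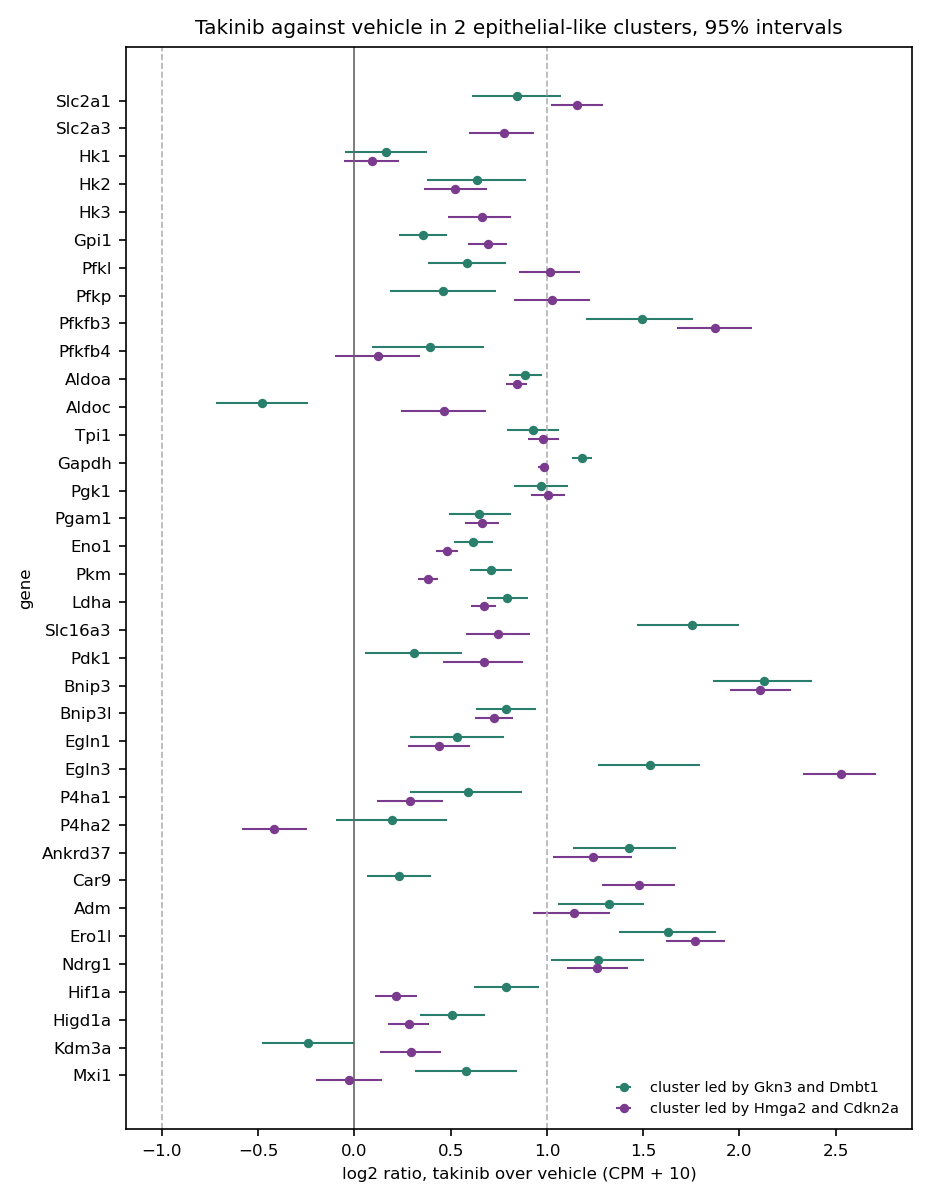
Log2 ratio of takinib to vehicle with 95% counting intervals in the epithelial-like clusters led by Gkn3 and Dmbt1 and by Hmga2 and Cdkn2a; dashed lines mark a log2 ratio of 1 in either direction. Bnip3 lies near 2 in both, at 2.13 and 2.11, and Car9 at 0.23 and 1.48.

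Monocyte-macrophage-like cells comprised 4605 vehicle and 6171 takinib cells, and 3 of the 36 genes were called higher, against 1.97% of the 11606 genes tested, and 0 lower, against 1.28%. The median of the 36 was 0.47, with 28 above 0, against -0.01 over all genes tested. Pfkfb3 stood at 32.0 CPM with vehicle and 132 CPM with takinib (log2 1.76 [1.67, 1.86]). Bnip3 stood at 89.2 and 238 CPM (log2 1.32 [1.26, 1.39]), and Ero1l at 65.5 and 173 CPM (log2 1.28 [1.20, 1.36]). Egln3 (0.98) and Bnip3l, the paralogue of Bnip3 (0.95), were just under the limit.

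Other genes of the pathway lay on both sides of 0 in these cells. Ldha was at 487 and 844 CPM (log2 0.78), Gapdh at 2523 and 3678 CPM (log2 0.54), Pgk1 at 289 and 453 CPM (log2 0.63) and Slc2a1 at 80.7 and 128 CPM (log2 0.61). Slc16a3 was at 107 and 149 CPM (log2 0.44). Hk2 (85.6 and 65.3 CPM, log2 -0.34), Hif1a (476 and 395 CPM, log2 -0.26), P4ha1 (log2 -0.42) and the aldolase Aldoc (39.7 and 18.2 CPM, log2 -0.82) were below 0 and under the limit. Against only the vehicle cells with Xist and no Y-linked transcript, Hif1a gave 0.46 [0.35, 0.57] and P4ha1 0.35 [0.13, 0.58], both above 0. In the same comparison Hk2 gave 0.17 [-0.05, 0.39], an interval that holds 0, and Aldoc stayed below 0 at -0.93 [-1.17, -0.69]. Car9, Adm and Ndrg1 were low in this class, at 4.38, 4.78 and 27.2 CPM in takinib.

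The class was made of different clusters in the 2 libraries, and levels of the 36 genes differed between the clusters. A cluster led by H2-Ab1 and H2-Eb1, genes of antigen presentation, held 72.7% of the vehicle cells of the class and 4.59% of the takinib cells. A cluster led by Saa3 and F13a1, with Arg1 among its 10 leading genes, held 1.09% (50 cells) of the vehicle and 43.7% (2694 cells) of the takinib cells. In the Saa3 cluster Bnip3 was at 382 CPM in vehicle [296, 485] and 378 CPM in takinib [369, 387]. In the H2-Ab1 cluster it was at 84.1 and 128 CPM. The Saa3 cluster was thus high for Bnip3 in both libraries, and the vehicle and takinib values within it overlap.

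Against the other monocyte-macrophage-like clusters of its own library, the Saa3 cluster was higher by a log2 of at least 1 for 12 of the 36 genes in vehicle and for 13 in takinib, and lower for 0 in either. Vehicle values rest on 50 cells, and the 43 vehicle cells of the Gpnmb cluster were left out. All genes with at least 50 counts on either side of these comparisons were higher by that limit in 2.62% of cases in vehicle and 1.46% in takinib, and lower in 4.99% and 1.95%. The same filter was passed by 35 of the 36 genes in vehicle, with 12 of them higher, and by all 36 in takinib, with 13 higher. The medians over the 36 genes were 0.75 in vehicle and 0.87 in takinib. Bnip3 gave 2.01 [1.65, 2.35] in vehicle and 1.40 [1.34, 1.46] in takinib, Egln3 2.17 [1.66, 2.64] and 1.77 [1.68, 1.86], and Ero1l 2.77 [2.44, 3.08] and 1.46 [1.39, 1.52]. Pgk1 gave 1.21 [0.94, 1.47] and 1.36 [1.32, 1.41], and Slc16a3 1.07 [0.62, 1.50] and 1.54 [1.47, 1.61]. Pfkfb3 gave 1.00 [0.23, 1.71] in vehicle and 1.86 [1.79, 1.94] in takinib, and Slc2a1 0.91 [0.36, 1.42] and 1.32 [1.25, 1.39]. Clusters were formed without the 36 genes, though genes that vary with them took part.

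Inside single clusters of the class the ratio between libraries was smaller. In the H2-Ab1 cluster 0 of 34 genes past the filter were called higher, against 0.745% of all genes, and 0 lower, against 0.756%. In the cluster led by Car4 and Chil3 0 of 33 were called higher, against 0.986%, and 0 lower, against 0.657%. In the cluster led by Ccl8 and Cbr2 0 of 31 were called higher, against 2.28%, and 4 were called lower, against 1.16%. The lower genes there were Egln3 (96.8 and 29.4 CPM, log2 -1.44 [-1.74, -1.13]), Slc16a3 (147 and 61.5 CPM, log2 -1.14 [-1.39, -0.89]), Ankrd37 (49.9 and 17.8 CPM, log2 -1.11 [-1.48, -0.73]) and Hk2 (106 and 46.4 CPM, log2 -1.04 [-1.32, -0.75]). Bnip3 gave 0.56 [0.36, 0.75] in the H2-Ab1 cluster, 0.78 [0.61, 0.95] in the Car4 cluster and -0.30 [-0.51, -0.08] in the Ccl8 cluster. Pfkfb3 gave 0.25, 0.78 and 0.28 in the same order, against 1.76 over the class. None of the 3 genes called over the class was called within these clusters, whose shares of the class differ between libraries. Neutrophil markers, all 11 with counts in both libraries of the class, had a sum of 400.3 CPM (vehicle) and 8184 CPM (takinib), and of 10696 CPM in the takinib cells of the Saa3 cluster.

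**Figure D4:**
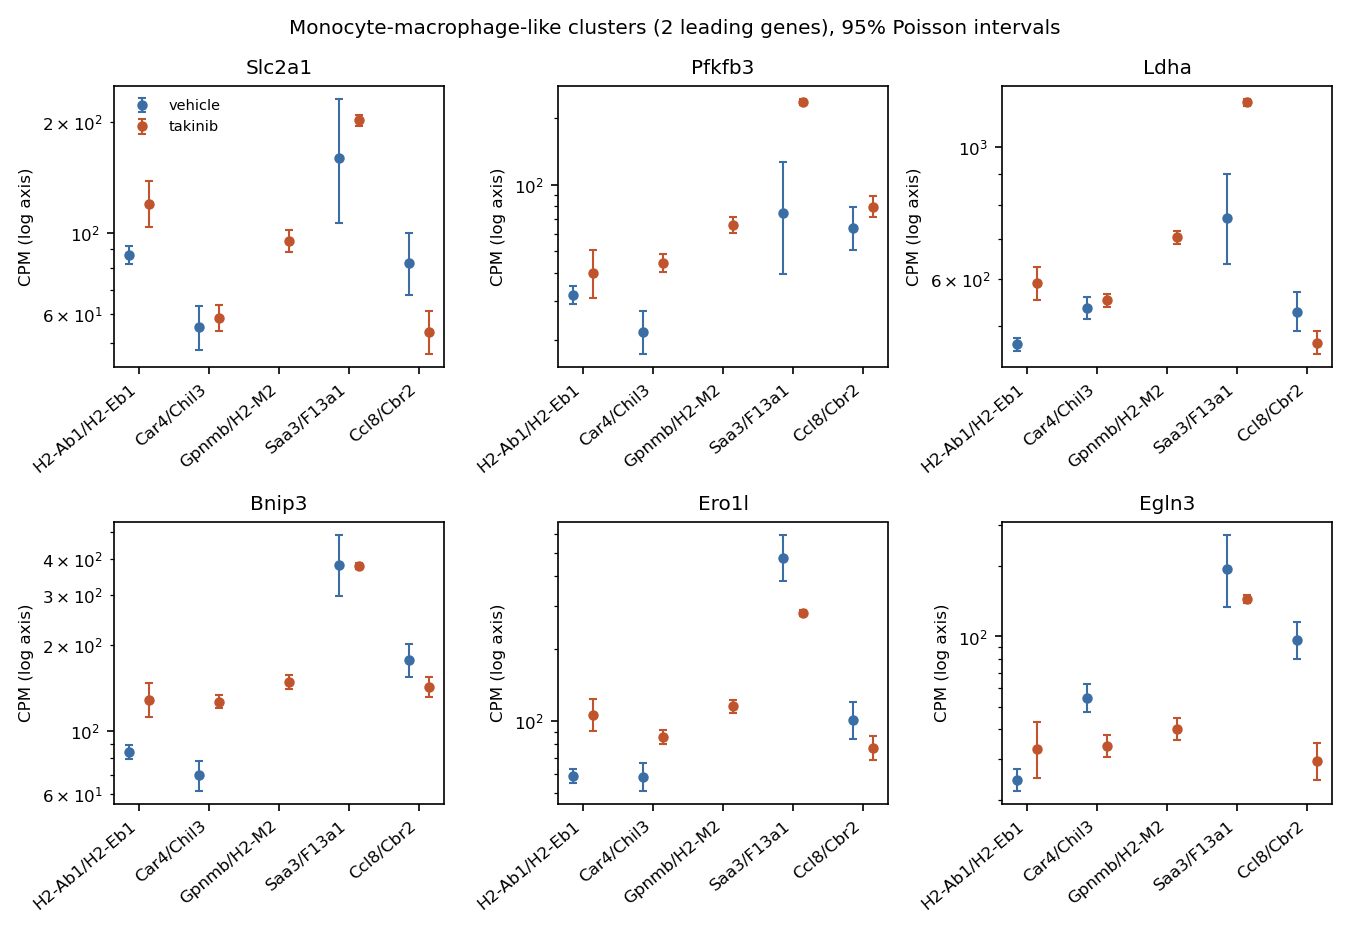
Levels of selected genes in CPM (log axis) in the 5 monocyte-macrophage-like clusters, vehicle in blue and takinib in orange, with 95% exact Poisson intervals. The cluster led by Gpnmb held 43 vehicle cells and has no vehicle point; in the Saa3 cluster Bnip3 lies at 382 CPM in vehicle and 378 CPM in takinib.

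Neutrophil-like cells comprised 268 vehicle and 7839 takinib cells. Of the 34 genes past the filter 8 were called higher in takinib, against 3.98% of the 9428 genes tested, and 0 lower, against 15.9%. The median of the 34 was 0.76, against -0.41 over all genes tested. Pfkfb3 stood at 32.1 CPM with vehicle (12 counts) and 404 CPM with takinib (log2 3.30 [2.65, 3.96]). Ero1l stood at 149.8 and 579 CPM (log2 1.88 [1.52, 2.26]), and Bnip3 at 102 and 458 CPM (log2 2.07 [1.65, 2.52]). Higd1a, a stabiliser of the respiratory chain, stood at 77.6 and 241 CPM (log2 1.52 [1.05, 2.02]).

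The lactate end of the pathway was also called in neutrophil-like cells. Slc16a3 was at 139 and 390.0 CPM (log2 1.42 [1.05, 1.81]) and Ldha at 423 and 899 CPM (log2 1.07 [0.85, 1.30]). Pfkp (80.3 and 193 CPM, log2 1.17) and Pgk1 (179 and 383 CPM, log2 1.05) completed the called genes. Slc2a1 was at 139 and 272 CPM (log2 0.92) and Gapdh at 1737 and 3314 CPM (log2 0.93). Egln3, already at 209 CPM in vehicle, was at 268 CPM in takinib (log2 0.34 [0.04, 0.67]). Hk2 (142 and 118 CPM, log2 -0.25 [-0.62, 0.14]) and Hif1a (385 and 349 CPM, log2 -0.14 [-0.37, 0.10]) had intervals that hold 0.

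Here too the clusters differed between libraries. In vehicle 95.1% of neutrophil-like cells lay in the cluster led by Cxcr2 and Siglecf, against 24.9% in takinib. Of the takinib neutrophil-like cells 51.3% lay in a cluster led by G0s2 and Hdc that held 2 vehicle cells. A cluster of 3964 takinib and 2 vehicle cells also scored best for neutrophil markers. It stayed unnamed because its monocyte-macrophage score was close, so these totals and shares leave it out. Within the Cxcr2 cluster 4 of 32 genes were called higher, against 6.96% of all genes, and 0 lower, against 7.25%. These were Pfkfb3 (30.4 and 164 CPM, log2 2.10 [1.39, 2.83]), Pfkfb4, its paralogue (24.3 and 74.1 CPM, log2 1.29 [0.52, 2.05]), Slc16a3 (log2 1.29 [0.89, 1.73]) and Bnip3 (log2 1.03 [0.59, 1.50]). The log2 ratio of Ero1l was 0.51 and that of Ldha 0.35 within it, under those of the class. Neutrophil-like cells are shallow in vehicle, with a median of 1222 UMIs against 2155 in takinib, and their vehicle sum holds 373720 UMIs.

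In T-like cells, 253 in vehicle and 1259 in takinib, 10 of the 31 genes past the filter were called higher, against 4.73% of the 6848 genes tested, and 0 lower, against 1.27%. The median of the 31 was 0.64, against -0.01 over all genes tested. Pfkfb3 stood at 9.50 CPM with vehicle (5 counts) and 107 CPM with takinib (log2 2.59 [1.85, 3.18]), and Bnip3 at 34.2 and 168 CPM (log2 2.01 [1.46, 2.57]). Egln3 stood at 11.4 and 78.1 CPM (log2 2.04 [1.32, 2.65]). The glucose transporter Slc2a1 stood at 24.7 and 92.0 CPM (log2 1.56 [0.95, 2.16]), and the second transporter Slc2a3 at 7.60 and 35.0 CPM (log2 1.35 [0.58, 1.94]). Ero1l (1.66), Slc16a3 (1.56), Ankrd37 (1.47), Bnip3l (1.16) and Ndrg1 (1.11) made up the rest of the called genes. Ldha was at 441 and 539.9 CPM (log2 0.29 [0.09, 0.48]), above 0 and under the limit. The intervals of Hif1a (log2 0.02 [-0.22, 0.27]) and Hk2 (log2 0.40 [-0.21, 1.01]) hold 0.

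B-like cells, 212 in vehicle and 1244 in takinib, held the most called genes of any compared class: 22 of the 32 past the filter were higher, against 10.4% of the 5921 genes tested, and 0 lower, against 3.11%. The median of the 32 was 1.21, against -0.03 over all genes tested. Pfkfb3 stood at 7.24 CPM with vehicle (3 counts) and 211 CPM with takinib (log2 3.68 [2.82, 4.28]), and Bnip3 at 14.5 CPM (6 counts) and 259 CPM (log2 3.46 [2.69, 4.14]). Ero1l (3.31), Slc16a3 (2.97), Egln3 (2.80), Slc2a1 (1.92), Aldoa (1.88), Ldha (1.76), Ankrd37 (1.54) and Bnip3l (1.38) followed. In this class all 5 enzymes from Gapdh to Pkm were called, at log2 ratios from 1.02 (Pgam1) to 1.27 (Gapdh and Eno1).

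Outside neutrophil-like cells, B-like cells of takinib had the highest sum of neutrophil markers among the compared classes. The 11 neutrophil markers reached a sum of 926 CPM among vehicle B-like cells, with Ly6g, Camp and Ngp at 0, and of 48202 CPM in takinib, with none at 0. In T-like cells they summed to 570.2 CPM, with Retnlg and Camp at 0, and to 18157 CPM. Removing the scaled neutrophil-like profile took out 29.3% of takinib UMIs in B-like cells and 10.9% in T-like cells. In B-like cells 10 genes were then past the limit, against 7.29% of all genes, with Bnip3 at 2.91, Pfkfb3 at 3.02 and Ero1l at 2.66. The enzymes from Gapdh to Pkm, all called in B-like cells before this step, were all under the limit after it. Gapdh was at 0.68, Pgk1 at 0.47, Pgam1 at 0.47, Eno1 at 0.82 and Pkm at 0.67. In T-like cells Bnip3 was at 1.68, Pfkfb3 at 2.05 and Slc2a1 at 1.20 after the same step.

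Endothelial-like cells, 718 in vehicle and 103 in takinib, had 5 of 29 genes called higher, against 3.59% of the 6546 genes tested, and 0 lower, against 5.53%. The median of the 29 was 0.29, against -0.17 over all genes. The called genes were Egln3 (10.2 and 82.6 CPM, log2 2.20 [1.72, 2.65]), Bnip3 (24.0 and 118 CPM, log2 1.91 [1.50, 2.32]), Ero1l (log2 1.86 [1.51, 2.21]), Slc16a3 (log2 1.37 [0.94, 1.79]) and Pfkfb3 (log2 1.32 [0.93, 1.70]). Neutrophil markers summed to 602 CPM in vehicle, with Ly6g at 0, and to 26339 CPM in takinib, with none at 0. Once the neutrophil-like profile, 15.8% of takinib UMIs, was taken out, 1 gene was called higher, Ero1l at 1.13, against 2.34% of all genes. In the other direction 1 was called lower, Ankrd37 at -1.19, against 4.43%. Egln3 was then at 1.50 but fell under 50 counts, and Bnip3 was at 0.91. Endothelium was also the class with the highest Adm and Ndrg1 in both libraries: Adm was at 55.5 and 62.6 CPM (log2 0.15 [-0.30, 0.59]) and Ndrg1 at 149 and 211 CPM (log2 0.47 [0.20, 0.74]). Hif1a was at 419.9 and 356 CPM (log2 -0.23).

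Fibroblast-like cells, 553 in vehicle and 103 in takinib, had 1 of 23 genes called higher, against 2.07% of the 5986 genes tested, and 0 lower, against 5.48%. That gene was Bnip3, at 33.2 CPM with vehicle and 134 CPM with takinib (log2 1.74 [1.32, 2.14]). Pfkfb3 and Ero1l did not reach 50 counts in either library of the class. Both collagen prolyl hydroxylases, whose substrate fibroblasts make in bulk, were below 0 and under the limit: P4ha1 was at 99.6 and 62.6 CPM (log2 -0.60 [-1.07, -0.14]) and P4ha2 at 102 and 60.8 CPM (log2 -0.66 [-1.13, -0.20]). Against only the vehicle cells with Xist and no Y-linked transcript, P4ha1 gave 0.40 [-0.32, 1.12] and P4ha2 0.06 [-0.61, 0.75]. Both of these intervals hold 0. Gapdh was at 759 and 1237 CPM (log2 0.70). Neutrophil markers summed to 218 CPM in vehicle, with Ly6g at 0, and to 8733 CPM in takinib, and Bnip3 was at 1.55 with the neutrophil-like profile removed.

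A further cluster stayed unnamed because its best score was for mesothelial markers and its leading genes held more fibroblast markers. It was led by Serpinb2 and Dcn and held 138 vehicle and 248 takinib cells. Of its 31 genes past the filter 14 were called higher, against 5.41% of all genes, and 0 lower, against 3.63%. They included all 5 enzymes from Gapdh to Pkm. Eno1 stood at 371 and 1152 CPM (log2 1.61 [1.44, 1.78]), Ldha at 381 and 1074 CPM (log2 1.47 [1.30, 1.65]), and Gapdh at 1475 and 3658 CPM (log2 1.30 [1.22, 1.39]). Slc2a1 was at 18.8 and 87.7 CPM (log2 1.76 [1.21, 2.29]). Hif1a was at 174 and 427 CPM (log2 1.25 [1.00, 1.50]) and P4ha2 at 16.1 and 71.2 CPM (log2 1.64 [1.07, 2.17]), whereas in the named classes neither was called. Neutrophil markers there summed to 263 CPM in vehicle, with Ly6g, Camp and Ngp at 0, and 11880.2 CPM in takinib, and their part in these values was not tested. Without doublet removal, or at a Leiden resolution of 0.5, a fibroblast-like cluster of 760 vehicle and 419 takinib cells, or of 696 and 348, was formed in place of the 553 and 103, and 16 genes were then called higher in it under either setting. The shares of all genes called higher were 4.26% without doublet removal and 4.46% at the lower resolution.

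In the unnamed cluster led by Ms4a4c and Vcan, with Ccr2 and Ly6c2 (genes of blood-derived monocytes) among its leading genes, 159 vehicle and 739 takinib cells were held, and 5 of 31 genes past the filter were called higher in takinib, against 6.04% of all genes, and 0 lower, against 2.66%. Ero1l stood at 22.4 and 109 CPM (log2 1.88 [1.17, 2.57]) and Bnip3 at 24.9 and 108 CPM (log2 1.76 [1.07, 2.44]). Egln3 (1.36), Bnip3l (1.23) and Slc2a1 (1.15) were the others. Pfkfb3 was at 67.2 and 71.3 CPM there (log2 0.07 [-0.43, 0.61]). Neutrophil markers summed to 2775 CPM in vehicle, with Camp at 0, and 14502 CPM in takinib.

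In the unnamed cluster led by genes of myeloid precursors (Elane and Mpo), with 195 vehicle and 312 takinib cells, 3 of 32 genes were called higher, against 3.4% of all genes, and 2 lower, against 2.17%. The higher genes were Hk3, the hexokinase of granulocytes (12.6 and 62.0 CPM, log2 1.67 [1.22, 2.08]), Ero1l (log2 1.26 [0.93, 1.59]) and Slc2a3 (log2 1.01 [0.52, 1.33]). The lower genes were Ankrd37 (log2 -1.12 [-1.48, -0.75]) and P4ha1 (log2 -1.06 [-1.38, -0.73]). Bnip3 was at 57.1 and 69.6 CPM, with an interval that holds 0 (log2 0.25 [-0.07, 0.57]). Neutrophil markers in this cluster summed to 245 CPM in vehicle, with Retnlg, Camp and Ngp at 0, and to 41080.2 CPM in takinib.

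Levels of the same gene also differed among classes within each library. Bnip3 in vehicle ran from 14.5 CPM in B-like to 102 CPM in neutrophil-like cells, whose interval [72.0, 139.6] holds the macrophage value of 89.2 CPM. In takinib it ran from 72.9 CPM in plasma-like cells to 458 CPM in neutrophil-like cells. Egln3 was highest in neutrophil-like cells of both libraries, at 209 and 268 CPM, with the next compared class at 36.3 CPM in vehicle (monocyte-macrophage-like) and 127 CPM in takinib (B-like). The B-like value is that before the neutrophil-like profile was removed, a step that took its log2 ratio from 2.80 to 1.98. Hk2 in vehicle was highest in neutrophil-like and next in monocyte-macrophage-like cells, at 142 and 85.6 CPM. Hif1a was highest in monocyte-macrophage-like cells, at 476 and 395 CPM, with endothelial-like cells next at 419.9 and 356 CPM, and of the compared classes lowest in epithelial-like cells, at 116 and 158 CPM. Car9 was highest among compared classes in epithelial-like cells, with 41.1 and 88.0 CPM against at most 5.35 CPM in vehicle (neutrophil-like, 2 counts) and 5.69 CPM in takinib (endothelial-like) elsewhere, but stood at 82.4 CPM in the 104 acinar-like cells of vehicle.

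Because the takinib cells carried no Y-linked transcript, vehicle cells were also split by sex-linked transcripts, which the 36 genes did not enter. In vehicle monocyte-macrophage-like cells, 508 with Xist only and 1275 with Y-linked transcripts only, the members were lower in the former, with a median log2 ratio of -0.57 over the 32 past the filter. Of these 2 were called lower, Bnip3 and Egln3, against 0.625% of all genes, and 0 higher. Bnip3 was at 32.7 CPM in Xist cells and 96.3 CPM in Y-linked cells (log2 -1.32 [-1.59, -1.04]), and Egln3 at 10.1 and 37.4 CPM (log2 -1.24 [-1.56, -0.89]). Pgk1, an X-linked gene, was at 153 and 312 CPM, and Slc2a1 at 43.6 and 86.7 CPM. Within the vehicle library, cells of either sex thus differed in Bnip3 and Egln3 by the size called between libraries. The cells were not matched for cluster, and the part of cluster in this difference was not tested.

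In vehicle epithelial-like cells, 204 with Xist only and 806 with Y-linked transcripts only, the median over 33 genes was -0.29 and 0 were called in either direction, against 1.38% of all genes lower. Ldha was at 219 and 406 CPM, Bnip3 at 17.4 and 31.5 CPM, and P4ha2, in the other direction, at 73.3 and 34.4 CPM. In fibroblast-like cells (118 and 173) the median over 15 genes was -0.59 with 1 called lower, P4ha1, against 2.15% of all genes, and in endothelial-like cells (69 and 266) it was -0.33 over 21 genes with 4 called lower, against 4.51% of all genes. These 4 were Pfkl, Pfkp, Ankrd37 and Adm. Adm was at 11.9 CPM in the endothelial-like Xist cells (2 counts) and 81.5 CPM in the Y-linked ones. Takinib against those Xist cells gave a log2 ratio of 1.73 [0.40, 2.74] for Adm. Set against the Xist cells of vehicle alone, takinib was called higher for 12 genes, against 2.79% of all genes, and lower for 1, P4ha2, against 2.35%, in epithelial-like cells. In monocyte-macrophage-like cells it was called higher for 15 genes, against 2.34% of all genes. Bnip3 then gave 2.49 [2.09, 2.88] in epithelial-like and 2.54 [2.29, 2.79] in monocyte-macrophage-like cells. For Bnip3 the ratio in these 2 classes was thus larger against the Xist cells of vehicle than against all vehicle cells. Takinib cells were not selected by Xist for this. Over the takinib library 10859 of 25183 cells held neither Xist nor a Y-linked transcript.

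**Figure D5:**
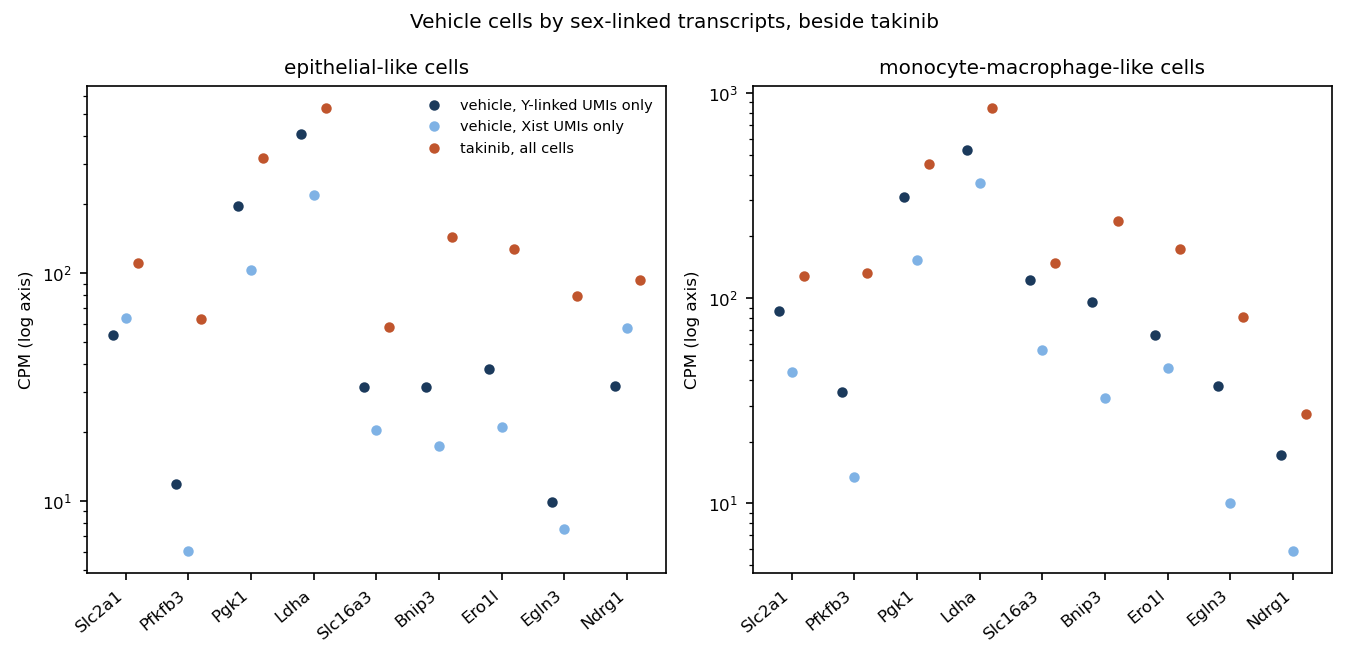
Levels of 9 genes in CPM (log axis) in epithelial-like and monocyte-macrophage-like cells, drawn as points without intervals. The groups are vehicle cells with Y-linked transcripts only, vehicle cells with Xist only and all takinib cells. For Bnip3 in monocyte-macrophage-like cells the 3 groups lie at 96.3, 32.7 and 238 CPM.

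Of the 63 related genes outside the 36, 2 were called higher and 2 lower in epithelial-like cells. The shares over all genes tested were 2.24% and 1.88%. Of 16 other glycolytic enzymes and glucose transporters, 9 passed the filter in epithelial-like cells and 0 were called, with a median of 0.31. Of 11 genes of pyruvate and lactate handling 10 passed and 0 were called there (median 0.06), and of 7 pentose phosphate genes 7 passed and 0 were called (median 0.04). Of 9 oxygen-sensing genes 9 passed and 1 was called higher, Hif3a (log2 1.14 [0.99, 1.27]). Of 20 other HIF target genes 18 passed, with a median of 0.17, 1 called higher and 2 lower. The higher gene was Pygl, a glycogen phosphorylase (7.70 and 34.0 CPM, log2 1.31 [1.15, 1.47]). The lower genes were Angptl4, a lipase inhibitor (50.3 and 10.3 CPM, log2 -1.57 [-1.71, -1.43]), and Nrn1 (log2 -1.13). Vegfa, the angiogenic HIF target, was at 179 and 162 CPM in epithelial-like cells (log2 -0.13 [-0.20, -0.05]) and at 83.1 and 96.9 CPM in monocyte-macrophage-like cells (log2 0.20 [0.12, 0.27]). Known HIF targets thus lay on both sides of 0 in epithelial-like cells.

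Hilpda, which blocks lipid droplet breakdown, was the one gene of these lists called higher in 5 classes. It stood at 127 and 275 CPM in monocyte-macrophage-like cells (log2 1.06 [1.00, 1.12]), with log2 ratios of 2.91 in neutrophil-like, 1.48 in endothelial-like, 1.61 in T-like and 3.14 in B-like cells. In monocyte-macrophage-like cells Lox was also called higher (log2 1.45), and Ppfia4 (log2 -1.36) and Ldhb, the lactate dehydrogenase subunit of oxidative tissue (51.4 and 20.7 CPM, just past the limit), were called lower. In neutrophil-like cells Fam162a (1.96) and Pgm1 (1.91) were higher and Rpe (-1.12), of the pentose phosphate pathway, was lower. The collagen-modifying enzymes Plod2 (-1.18) and Plod1 (-1.06) were lower in endothelial-like cells.

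Some of the 36 genes have near-identical copies, and whether reads were shared with them was not tested. The copy Eno1b held 180 counts in vehicle and 770 in takinib against 21967 and 99521 for Eno1, and Gapdhs, Aldoart1 and Aldoart2 held at most 3 counts in a library, so the deposited counts give these copies little weight. Many processed copies of Gapdh, Ldha and Pkm exist in the mouse genome, and how the authors' counting treated reads that match them is not given in the sources used here.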

How the data were processed

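Single-cell RNA was measured in 2 libraries. The authors deposited unnormalized UMI counts, made with Cell Ranger 4 (vehicle) and 6.1.1 (takinib) per the file headers; the submitters' processing notes name mm10, Cell Ranger 2.1.1, bcl2fastq, STAR 2.0.4b, Subread and featureCounts 1.45. Takinib barcodes held at least 500 UMIs, whereas vehicle barcodes were unfiltered.

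Cells had at least 1000 UMIs and 500 genes and at most 20% mitochondrial UMIs. Scrublet removed 314 vehicle cells (its automatic threshold) and the 1607 takinib cells (6%) with the highest scores, since its threshold there marked 0.00373%. Cells of both libraries were clustered with scanpy 1.11.5 (counts scaled to 10000, log, 2000 variable genes without the lists, 30 components, 15 neighbours, igraph 0.11.9, Leiden resolution 1, seed 1), with no correction between libraries. Clusters were named from 19 marker lists; a name needed 3 markers and failed when another class reached 0.75 of its score or had more markers than it among the 10 leading genes. Monocyte and macrophage lists were joined after the clusters were seen. Rows of 1 symbol (Aldoa has 2) were summed. The genes, lists and settings were chosen with earlier results of these data known. Named genes were the called ones (at most 10 up and 10 down per class), Slc2a1, Hk2, Pfkfb3, Gapdh, Pgk1, Ldha, Slc16a3, Hif1a, Egln3, Bnip3, Car9, Adm and Ndrg1, and of the other lists the 3 highest and 3 lowest called and Vegfa; other genes named were picked after their values were seen. With 1 library per group no test was run. The calculation of ratios and intervals was tested on simulated data.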

Additional observations from a re-analysis of the deposited data

How the results depend on the processing

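Alternatives were run one at a time for each class, and 65 of 89 counts of genes called higher stayed within 1.5 times the reported count. The 89 hold repeats of the reported run, which could not move. Fibroblast-like, endothelial-like, T-like and B-like cells are 1 cluster each, so their within-cluster counts are the reported ones. Naming every cluster by its highest score left those classes and epithelial-like cells unchanged. Parentheses give the share of all genes called in the same direction. In epithelial-like cells the 7 higher genes (2.24%) became 13 with cells thinned to 1000 UMIs (5.22%) and 11 with the median gene ratio set to 0 (2.66%). They became 12 with a pseudocount of 1 CPM (6.02%) and 3 with 50 CPM (0.84%). Against Xist cells of vehicle they became 12 (2.79%), with 1 lower (2.35%), and within the Hmga2 cluster 12 (2.95%). In fibroblast-like cells 1 (2.07%) became 16 without doublet removal (4.26%) and at Leiden resolution 0.5 (4.46%). It became 0 when thinned (2.84%), 3 with at least 20 counts (2.28%) and 4 against Xist cells (7.23%). Thinned, Bnip3 gave 2.14 there and fell under the minimum of 50 counts. In endothelial-like cells 5 (3.59%) became 0 when thinned (3.44%), with 1 lower (12.8%), and 3 with 50 CPM (2.34%). With the neutrophil-like profile subtracted 1 was higher (2.34%) and 1 lower (4.43%). Egln3 then stood at 1.50 and fell under 50 counts. Thinned, all 5 fell under 50 counts, with log2 ratios from 1.16 to 2.66. In monocyte-macrophage-like cells 3 (1.97%) became 5 with 1 CPM (4.95%), with 1 lower (4.45%), and 15 against Xist cells (2.34%). It became 0 within each of the H2-Ab1 (0.745%), Car4 (0.986%) and Ccl8 (2.28%) clusters, with 4 lower in the last (1.16%). In neutrophil-like cells 8 (3.98%) became 23 with the median set to 0 (8.58%), where the median of all genes had been -0.41. Within the Cxcr2 cluster it became 4 (6.96%). In T-like cells 10 (4.73%) became 5 with 50 CPM (1.5%). In B-like cells 22 (10.4%) became 13 with 50 CPM (4.56%) and 10 after subtraction (7.29%).

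Single called values reversed in 4 cases: in the Ccl8 cluster Bnip3 gave -0.30 and Ero1l -0.35, and in B-like cells after subtraction Slc2a3 gave -0.0674 and Hk3 -0.0554. Of the 56 called values 54 kept their sign under every setting run outside single clusters; the exceptions were Slc2a3 and Hk3. At Leiden resolution 0.5 the epithelial-like values rest on 125 vehicle and 308 takinib cells, since the cluster with 1612 and 1566 cells was unnamed there. Why these values moved was not tested, apart from what each setting removes by construction.

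For genes of the other lists, counts moved as follows. In epithelial-like cells 2 higher became 1 after subtraction, and 2 lower became 1 without doublet removal and when thinned. In fibroblast-like cells 0 higher became 3 without doublet removal, and 1 lower became 0 when thinned. In endothelial-like cells 1 higher became 2 without doublet removal and 0 when thinned or after subtraction, and 2 lower became 0 when thinned and 1 after subtraction. In monocyte-macrophage-like cells 2 higher became 1 when thinned, with mitochondrial genes left out of the denominator and with every cluster named by its highest score, and 2 lower became 1 when thinned and after subtraction. In neutrophil-like cells 1 lower became 2 without doublet removal and 3 when thinned or without mitochondrial genes. In T-like cells 2 higher became 1 when thinned and after subtraction. In B-like cells 6 higher became 3 without doublet removal and 2 after subtraction, with 1 lower after it.

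Not every setting gave a value in each class. A minimum of 2000 UMIs left enough cells only in epithelial-like and monocyte-macrophage-like cells, a mitochondrial limit of 10% gave none for neutrophil-like, T-like and B-like cells, and Xist cells gave none for those 3. Classes with few vehicle counts, such as Pfkfb3 in B-like cells with 3 counts, have wide intervals. No paired analysis was possible because each group has 1 library.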
